A study of Mus musculus with 4 samples.

Results

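Keratins and claudins, with 7 other genes that mark epithelium, were followed as tracers of epithelial RNA in the epididymal fat of mice on a high-fat diet. The set held every gene whose symbol is Krt or Cldn followed by a digit, Cldn5 of endothelium excepted, together with Cdh1, Epcam, Ocln, Dsp, Esrp1, Grhl2 and Elf3. It came to 78 of the 18194 genes measured, namely 48 keratins, 23 claudins and the 7 others. Symbols alone chose the members, and each gene was read from its probe set with the highest mean log2 signal over the 4 arrays.

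The arrays came from C57BL/6J mice, a wild-type inbred strain, that entered the study at 9 weeks of age and ate a high-fat diet (60% of energy) for 21 weeks. In the high-calcium whey group (2 arrays, replicates 1 and 2) the diet held 1.8% calcium with whey protein isolate. In the standard high-fat group (1 array) it held 0.4% calcium. A further array carries a title that names no group and entered no comparison. It is called the array of open diet. Each diet was fed to 10 mice, of which 2 per diet were profiled according to the labels. The RNA was taken from whole fat pads, so fewer cells of a type and less RNA per cell cannot be told apart.

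Epithelial cells are held together and sealed by a small number of protein families. Keratins are intermediate filament proteins that assemble only as pairs of a type I and a type II chain, and the pair in use marks the kind of epithelium: KRT8 with KRT18 in single-layered (simple) epithelium, KRT5 with KRT14 in the basal layer of stratified epithelium. Claudins and occludin span the membrane at tight junctions, E-cadherin (Cdh1) forms adherens junctions, and desmoplakin (Dsp) ties keratins to desmosomes. Fat cells are mesenchymal and build their filaments from vimentin. The fat pad beside the testis is covered by mesothelium, which does contain simple keratins, and lies against the epididymis and its ducts, which are lined by epithelium.

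Signals are given as log2 of the deposited linear intensity. Background was taken as the median of all 45101 probe sets on each array, which lay at -3.38 and -3.99 on high-calcium replicates 1 and 2, -4.002 on the standard array and -4.09 on the array of open diet. Replicate 1 thus had a median 0.62 above that of the standard array, and dim genes as a body read higher on it. Values under background have no reliable size. Where an array was under it, a fold difference is given as a lower bound that sets the brighter array against the background of the dimmer one. Bounds are on the deposited scale and take no account of the higher median of replicate 1. The adipocyte list served as the check of the tissue label: its 5 measured genes, among them Adipoq (adiponectin), were above background on all 4 arrays, with a summed linear signal of 111 and 106 on the high-calcium arrays, 100.2 on the standard array and 97.2 on the array of open diet.

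Many epithelial genes were dark in this fat. On all 4 arrays 34 of the 78 members stayed under background, as did 25.2% of all 18194 genes, and 17 were above it throughout, as were 57.5% of all genes. The other 27 members were above it on 1 to 3 arrays. Members above background numbered 35 and 27 on the high-calcium arrays, 27 on the standard array and 26 on the array of open diet, where 64.6% to 66.1% of all genes were above it on each array. Hair keratins were under background on every array for 7 of 12 members, keratins of the inner root sheath for 6 of 7 and keratins of stratified epithelium for 11 of 17. None of the 5 simple keratins was, nor any of the 7 genes outside the keratin and claudin families. Of the claudins, 9 of 23 were.

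**Figure D1:**
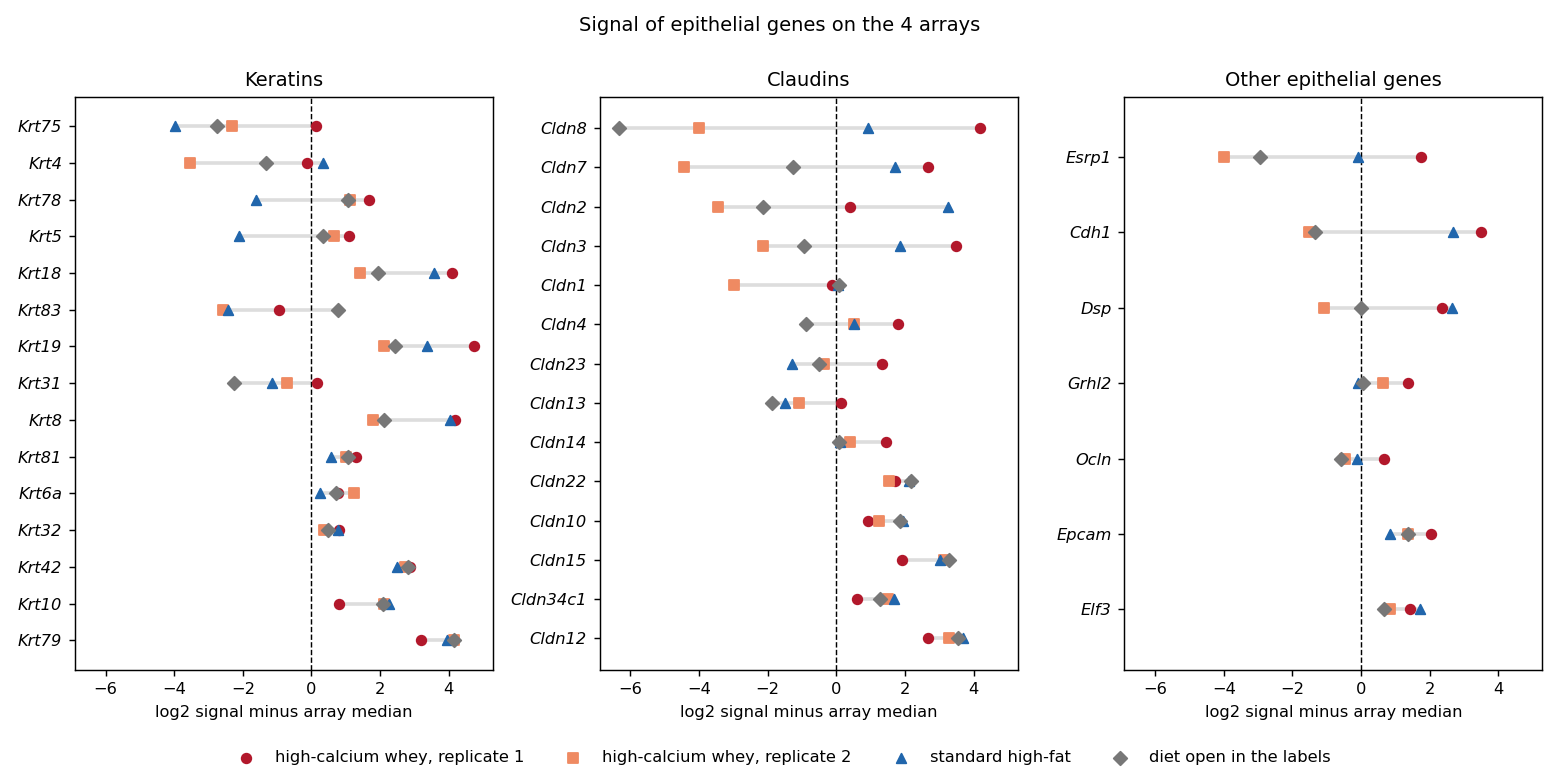
Log2 signal minus the array median for the 36 members described one by one, in 3 panels by family, with 1 point per array and a grey bar from the lowest to the highest array. The dashed line at 0 is background. The points of high-calcium replicate 1 and of the standard array lie together on the right for Krt8, Krt18, Cdh1, Dsp, Cldn3 and Cldn7, with the other arrays to the left, whereas the points of Krt42 and Krt32 lie close together.

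The main simple keratins differed more between the 2 high-calcium arrays than between the diets. Krt8, the type II chain of simple epithelium, had log2 signals of 0.80 on high-calcium replicate 1 and -2.20 on high-calcium replicate 2, against 0.03 on the standard array. The array of open diet had -1.99. Krt18, its type I partner, had 0.72 and -2.57 on the high-calcium arrays, against -0.43 on the standard array, and -2.16 on the array of open diet. In both genes replicate 1 and the standard array were high, replicate 2 and the array of open diet were low, and the standard array lay between the 2 high-calcium arrays. Krt19, a small type I keratin of ducts and of mesothelium, ran in the same order, with 1.35 and -1.89 on the high-calcium arrays, -0.63 on the standard array and -1.67 on the array of open diet. Krt8, Krt18 and Krt19 were above background on every array. Replicate 1 exceeded replicate 2 by 7.97-fold for Krt8, 9.81-fold for Krt18 and 9.44-fold for Krt19.

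For none of these 3 keratins did the diets differ beyond the spread of the high-calcium arrays. Krt8 averaged -0.70 ± 2.12 on the high-calcium arrays (SD, n = 2), a difference from the standard array of -0.73 (SE 1.71, 95% interval -7.08 to 5.62). Krt18 differed by -0.49 (SE 1.88) and Krt19 by 0.37 (SE 1.85). Without replicate 1 the difference was -2.22 for Krt8, -2.14 for Krt18 and -1.25 for Krt19. Without replicate 2 it was 0.77, 1.16 and 1.98 in the same order of genes, so that the sign for each gene was set by which mouse was kept.

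The remaining simple keratins were near background. Krt7, a type II keratin of glandular ducts, had -4.04 and -3.59 on the high-calcium arrays, -3.42 on the standard array and -4.03 on the array of open diet. It was under background on replicate 1, where Krt8, Krt18 and Krt19 were highest. Krt20, a type I keratin of intestinal and urinary lining, was above background on high-calcium replicate 2 alone, at -3.57, with -5.09 on replicate 1 and -4.20 on the standard array.

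E-cadherin and its junction partners were far apart on the 2 high-calcium arrays. Cdh1 had 0.12 on replicate 1 and -5.51 on replicate 2, against -1.33 on the standard array and -5.43 on the array of open diet. It was thus above background on 1 high-calcium array and on the standard array, with replicate 1 at least 17.3-fold and the standard array at least 6.32-fold above replicate 2. Dsp, the desmosomal plaque protein, had -1.03 and -5.07 on the high-calcium arrays, -1.35 on the standard array and -4.10 on the array of open diet. Replicate 1 and the standard array lay close together for Dsp, and the other arrays were under background. Ocln, which encodes occludin, was above background on replicate 1 alone by the probe set used, at -2.71, with -4.45 on replicate 2, against -4.13 on the standard array and -4.69 on the array of open diet. The fitted differences were -1.36 (SE 3.18) for Cdh1, -1.70 (SE 2.29) for Dsp and 0.55 (SE 1.03) for Ocln.

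Claudins 3, 7 and 8 were far apart on the 2 high-calcium arrays. Cldn3, a sealing claudin of many glandular epithelia, had 0.11 on high-calcium replicate 1 and -6.12 on replicate 2, against -2.16 on the standard array and -5.04 on the array of open diet. Cldn7, which also lies along the lateral membrane of epithelial cells, had -0.71 and -8.44 on the high-calcium arrays, -2.30 on the standard array and -5.35 on the array of open diet. Cldn8, a barrier claudin of distal tubular epithelia such as the collecting duct, had 0.82 and -7.98 on the high-calcium arrays, -3.08 on the standard array and -10.44 on the array of open diet. All 3 claudins were above background on replicate 1 and the standard array and under it on replicate 2 and the array of open diet. Replicate 1 was at least 17.2-fold above replicate 2 for Cldn3, at least 9.71-fold for Cldn7 and at least 28.2-fold for Cldn8. Between the 2 arrays on which it was measured, Cldn8 was 14.96-fold higher on replicate 1 than on the standard array, where Cldn3 was 4.82-fold and Cldn7 3.01-fold higher.

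Cldn2 ran the other way between those 2 arrays. This claudin forms a paracellular channel for cations and water in leaky epithelia such as the proximal tubule of the kidney. It had -2.98 and -7.44 on the high-calcium arrays, against -0.75 on the standard array and -6.23 on the array of open diet. Its difference of -4.46 (SE 2.53, 95% interval -13.84 to 4.91) did not pass (limma, adjusted p = 0.9999). A second probe set gave -3.65 and -5.00 on the high-calcium arrays, -2.47 on the standard array and -7.85 on the array of open diet, and again the standard array was highest. By that probe set only the standard array was above background, and the difference was -1.85. With each array centred on its own median, Cldn2 was the 1 member called, at -4.78 (limma, adjusted p = 0.00526), in a setting that called 0.528% of all genes. Both this size and that of -4.46 include replicate 2, which lay 3.45 under background, where values have no reliable size. By the probe set used, the standard array was 4.70-fold above replicate 1 and at least 9.47-fold above replicate 2.

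The order of arrays seen for Krt8 was counted over all members. In 18 of 78 members replicate 1 and the standard array were both at least 2-fold above the other 2 arrays, a pattern that 3.64% of all genes showed. With both arrays also above background the count was 9 members, namely Cdh1, Cldn2, Cldn3, Cldn7, Cldn8, Dsp, Krt8, Krt18 and Krt19, against 1.01% of all genes. Each other choice of 2 arrays out of 4 was the top pair in 0 to 5 members by the same 2-fold rule. Signals under background entered these rules as deposited. The pattern was counted after it had been seen, so the counts describe it and test nothing. It held for 15 members with the arrays centred on their medians and for 14 after quantile normalization. The shares of all genes were 2.57% and 2.42% in the same order.

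Promoters of 4 members are shown to let the start regions of genes with this profile be compared. Krt8, Krt18 and Cldn3 had it by the probe sets used, and Epcam by its other probe set, described further on. Each sequence runs from 250 bases before to 50 bases after the start of the gene in RefSeq, build GRCm38.p6. The Krt8 window is chr15:102004293-102004592 on the minus strand and the Krt18 window chr15:102027966-102028265 on the plus strand. That of Cldn3 is chr5:134985964-134986263 and that of Epcam chr17:87635729-87636028, both on the plus strand. Capitals mark CAGGTG or its reverse complement, the E-box that repressors of epithelial genes such as SNAI and ZEB proteins are known to bind in the Cdh1 promoter.
Krt8: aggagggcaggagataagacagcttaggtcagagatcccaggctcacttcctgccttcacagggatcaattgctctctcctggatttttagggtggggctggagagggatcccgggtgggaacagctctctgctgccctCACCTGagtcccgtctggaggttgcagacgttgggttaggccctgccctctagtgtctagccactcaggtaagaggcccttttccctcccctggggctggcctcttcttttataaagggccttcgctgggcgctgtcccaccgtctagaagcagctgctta
Krt18: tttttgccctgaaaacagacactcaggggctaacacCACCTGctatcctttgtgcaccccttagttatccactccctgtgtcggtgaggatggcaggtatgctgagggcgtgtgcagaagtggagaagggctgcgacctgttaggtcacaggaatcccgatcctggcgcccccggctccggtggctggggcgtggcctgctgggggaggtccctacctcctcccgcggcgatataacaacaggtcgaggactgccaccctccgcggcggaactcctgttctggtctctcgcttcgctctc
Cldn3: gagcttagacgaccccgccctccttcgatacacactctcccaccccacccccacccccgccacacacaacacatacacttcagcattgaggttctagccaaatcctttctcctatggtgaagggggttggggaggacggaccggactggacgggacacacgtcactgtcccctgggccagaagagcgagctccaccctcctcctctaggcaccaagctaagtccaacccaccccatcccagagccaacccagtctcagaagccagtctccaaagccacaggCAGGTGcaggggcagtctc
Epcam: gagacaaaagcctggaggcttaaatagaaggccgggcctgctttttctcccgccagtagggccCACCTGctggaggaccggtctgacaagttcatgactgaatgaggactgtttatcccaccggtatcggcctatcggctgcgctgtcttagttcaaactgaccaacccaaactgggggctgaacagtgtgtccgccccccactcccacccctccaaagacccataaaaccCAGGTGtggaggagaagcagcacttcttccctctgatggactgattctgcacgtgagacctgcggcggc
Both strands were searched, in 64 promoters of the 54 members with an entry and in all 32851 promoters of the table. CAGGTG was present in 22 member promoters (34.4%) and in 20.2% of all promoters. Each promoter shown holds it, but not every member with this profile does. The Cldn2 window (chrX:139800558-139800857) and a Cldn7 window (chr11:69964529-69964828) hold 0. Another Cldn7 window and that of Dsp hold it. The core AACCNGTT of the grainyhead family, to which Grhl2 belongs, was in 0 of the 64 and in 2.09% of all, which says only that these letters are not in these windows.

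The factors that drive the epithelial program were less uniform. Esrp1, a splicing regulator of epithelial cells, had -1.62 and -7.98 on the high-calcium arrays, -4.10 on the standard array and -7.04 on the array of open diet. It was above background on replicate 1 alone, with the standard array just under it. Grhl2, a transcription factor that activates Cdh1 and claudin genes, had -2.02 and -3.37 on the high-calcium arrays, against -4.08 on the standard array and -4.04 on the array of open diet. Both high-calcium arrays were above background and the standard array was just under it, so the mean of the high-calcium arrays was at least 2.48-fold higher (limma, adjusted p = 0.9999), with bounds of 3.95-fold for replicate 1 and 1.55-fold for replicate 2. Elf3, an epithelial ETS factor, was above background on all arrays, with -1.96 and -3.15 on the high-calcium arrays, -2.29 on the standard array and -3.42 on the array of open diet. Replicate 1 was highest and the standard array second, within a range of 1.47.

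Epcam, the adhesion molecule used to sort epithelial cells, gave contrary answers by probe set. The probe set used had -1.34 and -2.63 on the high-calcium arrays, -3.17 on the standard array and -2.72 on the array of open diet. Its identifier ends in _x_at, which marks probes that can bind other transcripts. The other probe set had -0.61 and -6.98 on the high-calcium arrays, -1.33 on the standard array and -6.11 on the array of open diet. The standard array was thus the lowest of the 4 by the first and the second highest by the other, which followed Cdh1.

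Other probe sets of the members could be compared for 20 genes, which had 31 besides those used. Of these, 15 were above background on at least 1 array, and 12 of the 15 had the same array highest as the probe set used. The exceptions were 1 probe set each of Cldn1, Cldn34c1 and Krt14. Krt8 had 3 probe sets, and the 2 not used read -0.15 and -0.51 on replicate 1, -2.75 and -2.52 on replicate 2, -0.89 and -1.37 on the standard array and -2.59 and -3.19 on the array of open diet. All 4 probe sets of Cldn3 were highest on replicate 1, with the standard array second. The second probe set of Ocln had -2.99 and -9.86 on the high-calcium arrays, -4.32 on the standard array and -8.63 on the array of open diet. Ocln lay above background on replicate 1 alone with either.

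**Figure D2:**
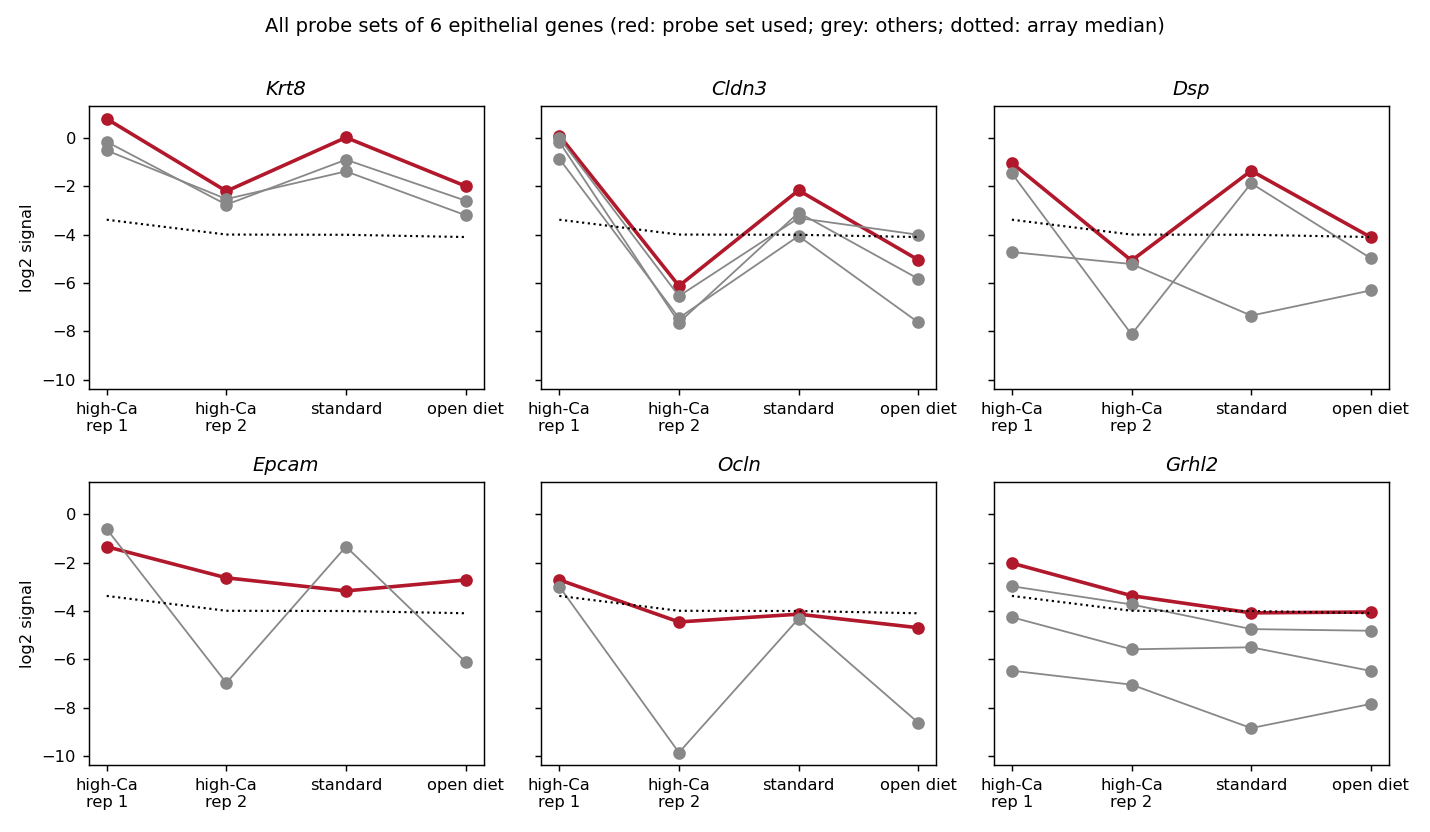
Log2 signal of every probe set of Krt8, Cldn3, Dsp, Epcam, Ocln and Grhl2 on the 4 arrays, with the probe set used in red, the others in grey and the array median dotted. Lines join the values of 1 probe set and imply no order of the arrays. For Krt8 and Cldn3 all probe sets dip on replicate 2 and the array of open diet, whereas the red line of Epcam lacks the dip of its grey line.

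Several keratins of stratified epithelium were lowest on the standard array, as were 21 of all 78 members and 25.8% of all genes. Krt10, of the same group, was highest there. Krt5, the type II chain of basal cells, had -2.27 and -3.34 on the high-calcium arrays, against -6.12 on the standard array and -3.75 on the array of open diet. The mean of the high-calcium arrays was at least 2.29-fold higher, with bounds of 3.32-fold for replicate 1 and 1.58-fold for replicate 2. Krt14, its type I partner, was above background on replicate 1 alone, at -2.89, with -4.39 on replicate 2, against -5.44 on the standard array and -5.35 on the array of open diet. Krt78, a type II keratin of stratified epithelium, had -1.70 and -2.86 on the high-calcium arrays, against -5.61 on the standard array and -3.04 on the array of open diet. The mean of its high-calcium arrays was at least 3.30-fold higher, with bounds of 4.94-fold for replicate 1 and 2.21-fold for replicate 2. The 3 arrays other than the standard one were above background for Krt5 and for Krt78. The fitted differences were 3.31 (SE 0.68, 95% interval 0.79 to 5.83) for Krt5 and 3.33 (SE 0.73, 95% interval 0.63 to 6.02) for Krt78, each with an adjusted p of 0.978 (limma). These are sizes against a value under background. The bounds hold on the deposited scale only, on which the background of replicate 1 was higher. Above the background of their own array, the high-calcium values lay 1.11 and 0.65 higher in log2 for Krt5. For Krt78 they lay 1.68 and 1.13 higher.

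Krt80 and Krt6a were also lowest on the standard array. Krt80, a type II keratin, had -2.77 and -2.89 on the high-calcium arrays, against -4.07 on the standard array and -3.06 on the array of open diet, with a high-calcium mean at least 2.26-fold higher. Krt6a, a keratin induced in wounded epidermis, was above background on all arrays by the probe set used. It had -2.61 and -2.74 on the high-calcium arrays, -3.75 on the standard array and -3.37 on the array of open diet. Its difference was 1.08 (SE 0.33, 95% interval -0.14 to 2.29). It was 0.07 without probe sets that can share transcripts and 1.96 when its probe sets were averaged. Both values draw on its other probe sets, which were under background on every array. Krt75, a hair follicle keratin, reached background on replicate 1 alone, at -3.24, with -6.31 on replicate 2, against -7.98 on the standard array and -6.85 on the array of open diet. Krt4, a type II keratin of internal stratified lining, was above background on the standard array alone, at -3.68, with -3.52 and -7.54 on the high-calcium arrays and -5.41 on the array of open diet.

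Other keratins above background on every array spread less than Krt8, Krt18 and Krt19. Krt79, a type II keratin described in the follicle and sebaceous duct, had -0.20 and 0.17 on the high-calcium arrays, -0.04 on the standard array and 0.06 on the array of open diet, a range of 0.37 (0.99 with the arrays centred on their medians). Krt10, a type I keratin of differentiating epidermis, had -2.57 and -1.88 on the high-calcium arrays, -1.73 on the standard array and -2.02 on the array of open diet. Krt1, the usual type II partner of Krt10, was under background on all 4 arrays. Krt42, a type I keratin, had -0.52 and -1.26 on the high-calcium arrays, -1.52 on the standard array and -1.29 on the array of open diet. The hair keratin Krt32 had -2.58 and -3.62 on the high-calcium arrays, -3.22 on the standard array and -3.61 on the array of open diet. Krt81, also a hair keratin, had -2.07 and -3.0002 on the high-calcium arrays, -3.43 on the standard array and -3.03 on the array of open diet. All 3 were highest on replicate 1, with ranges of 1.004 to 1.36. Krt31, a hair keratin, was above background on replicate 1 alone (-3.22), and Krt83, another, on the array of open diet alone (-3.31). Over the 17 members above background throughout, the median range across arrays was 1.04, and over the 10468 genes of all kinds above background throughout it was 0.45.

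The 6 claudins above background on every array ranged over 0.41 to 2.09, and Cldn12 was the only 1 with a range under the 0.45 of all such genes. Cldn12, a claudin found in many tissues, had -0.72 and -0.71 on the high-calcium arrays, against -0.30 on the standard array and -0.54 on the array of open diet. Its difference of -0.41 (SE 0.32, 95% interval -1.59 to 0.77) was larger than the gap of the high-calcium arrays and did not pass. Cldn10, an ion channel claudin, had -2.45 and -2.75 on the high-calcium arrays, -2.06 on the standard array and -2.23 on the array of open diet. Cldn15, a cation channel claudin of the intestine, had -1.47 and -0.84 on the high-calcium arrays, -0.98 on the standard array and -0.82 on the array of open diet. It was lowest on replicate 1, where Cldn3, Cldn7 and Cldn8 were highest. Cldn22 had -1.66 and -2.45 on the high-calcium arrays, -1.88 on the standard array and -1.91 on the array of open diet. Cldn34c1 had -2.77 and -2.48 on the high-calcium arrays, -2.31 on the standard array and -2.82 on the array of open diet. Its second probe set had -3.41 and -3.72 on the high-calcium arrays, -3.80 on the standard array and -3.38 on the array of open diet. By that probe set the standard array was lowest instead of highest, and replicate 1 was under background. Cldn14, a claudin of the inner ear and kidney, had -1.93 and -3.59 on the high-calcium arrays, against -3.88 on the standard array and -4.02 on the array of open diet.

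Cldn4 and Cldn23 were high on replicate 1 and not on the standard array. Cldn4, whose gene neighbours Cldn3, had -1.59 and -3.47 on the high-calcium arrays, -3.49 on the standard array and -4.98 on the array of open diet. Replicate 2 and the standard array were level, and the array of open diet was under background. Cldn23 was above background on replicate 1 alone, at -2.06, with -4.35 on replicate 2 and -5.29 on the standard array. Cldn13 too was above background on replicate 1 alone, at -3.25. Cldn1, a sealing claudin of skin and other barriers, was at background, with -3.50 and -6.98 on the high-calcium arrays, -3.94 on the standard array and -4.02 on the array of open diet.

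Between the diets no member passed. limma with Benjamini-Hochberg adjustment over all genes called 0 of 78 members and 0% of 18194 genes. The smallest adjusted p of a member was 0.978, and 5 members and 898 genes in all had an unadjusted p under 0.05. The fit rested on 1 residual degree of freedom and lends the spread of the high-calcium arrays to the lone standard array. A fit with a trend and robust estimation called 0 members and 6 genes.

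By size alone, 23 members were at least 1.5-fold higher on both high-calcium arrays than on the standard array, and 4 were at least 1.5-fold lower. The same rules held for 12.7% and 4.49% of all genes. The split depended on the scaling, with 18 higher and 13 lower on centred arrays and 15 higher and 14 lower after quantile normalization. Of all 18194 genes, 1826 were higher and 1382 lower on centred arrays. After quantile normalization 1580 were higher and 1282 lower. Of the 23 higher members 11 were under background on all 4 arrays, and Krt6a was the only 1 above it on all 4, by the probe set used. The others included Krt5, Krt78, Krt80 and Grhl2. Of the 4 lower members Krt2, Krt28 and Krt73 were under background throughout, which leaves Cldn2. The median log2 difference over all 78 members was 0.02, with 1.14 on replicate 1 and -0.17 on replicate 2, beside 0.08, 0.19 and 0.01 over all genes. Centred on array medians it was -0.30, beside -0.24 over all genes.

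In 62 of 78 members the gap between replicates 1 and 2 was at least 1.5-fold, against 42.5% of all genes. The median absolute gap between them was 1.46 over the members and 0.45 over all genes. Among those above background on all 4 arrays it was 0.79 over 17 members and 0.25 over 10468 genes. The median absolute difference between the diets was 0.95 over the members and 0.32 over all genes.

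**Figure D3:**
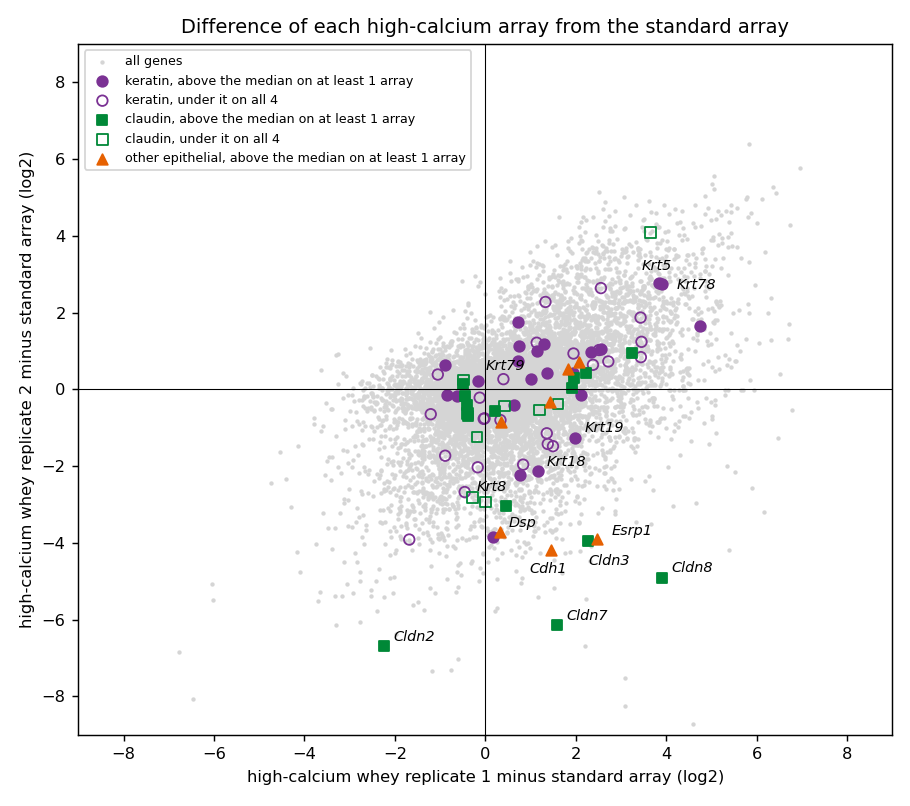
Log2 difference of high-calcium replicate 1 (horizontal) and of high-calcium replicate 2 (vertical) from the standard array for the members, coloured by family, over all 18194 genes in grey. Filled symbols were above background on at least 1 array. Both axes share the standard array, which by itself draws points toward the diagonal. Cldn8, Cldn7, Cldn3, Cdh1 and Esrp1 lie to the lower right, higher on replicate 1 and lower on replicate 2, while Cldn2 lies to the lower left and Krt5 and Krt78 to the upper right.

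Other epithelial genes, from lists drawn up with earlier results of these data known, were also often highest on replicate 1. This held for 26 of 35 measured genes of the epithelial program, for 45 of the 78 members and for 47.6% of all genes. In the epithelial program 11 had replicate 1 and the standard array both at least 2-fold above the others. The summed linear signal was 17.7 and 7.62 on the high-calcium arrays, 14.8 on the standard array and 7.93 on the array of open diet. Limma called 0 of them. By any margin 7 were higher and 5 lower on both high-calcium arrays, as were 38.6% and 23.9% of all genes. Elf5, an ETS factor of glandular epithelium, had -0.02 and -7.64 on the high-calcium arrays, -4.67 on the standard array and -7.97 on the array of open diet. Tmem30b, a flippase subunit, had 0.67 and -5.00 on the high-calcium arrays, -1.91 on the standard array and -3.43 on the array of open diet. Rab25, a GTPase of apical recycling, had -1.88 and -6.64 on the high-calcium arrays, -4.76 on the standard array and -7.35 on the array of open diet.

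Plaque and scaffold proteins of junctions, many of them used by cells other than epithelium, were measured for 28 genes. Of these 15 were above background on all arrays and 18 were highest on replicate 1, beside 57.5% and 47.6% of all genes. The summed signal, most of it from Ctnnb1, Ctnna1 and Pkp2, was 32.4 and 30.8 on the high-calcium arrays, 31.1 on the standard array and 30.8 on the array of open diet. Limma called 0 of them, and 9 were higher and 5 lower on both high-calcium arrays by any margin. Of all genes 38.6% were higher and 23.9% lower on both by any margin. The median difference of the 28 junction genes was 0.09, and -0.23 on centred arrays. Ildr1, a tricellular junction protein, was above background on replicate 1 alone, at -2.99, and Cgn, which encodes cingulin, was under background on the array of open diet alone. Dsg2, the desmoglein of simple epithelium, had -3.20 and -5.56 on the high-calcium arrays, against -1.82 on the standard array and -4.11 on the array of open diet. Of 15 other intermediate filament genes limma called 0, and 8 were higher and 1 lower on both high-calcium arrays by any margin. The shares of all genes were again 38.6% and 23.9%. The filament genes summed to 28.6 and 34.9 on the high-calcium arrays, 28.6 on the standard array and 30.6 on the array of open diet.

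Markers of some other cell types varied across the same arrays. The 4 smooth muscle genes (3 above background on all arrays) summed to 32.0 on replicate 1 and 7.35 on replicate 2, against 7.10 on the standard array and 5.59 on the array of open diet, and all 4 were highest on replicate 1. Cnn1, calponin of smooth muscle, had 2.31 and -6.16 on the high-calcium arrays, -3.58 on the standard array and -6.23 on the array of open diet. The 7 measured genes of epididymis and vas deferens summed to 1.15 and 0.203 on the high-calcium arrays, 0.449 on the standard array and 0.228 on the array of open diet, and 3 were above background on replicate 1, 0 on replicate 2, against 2 on the standard array and 1 on the array of open diet. Lcn8, Lcn9, Adam7 and Cftr were under background on all arrays. Rnase10 had -2.51 and -4.21 on the high-calcium arrays, -3.69 on the standard array and -3.75 on the array of open diet. It was under background on replicate 2 alone. Pax8 was above background on replicate 1 alone, at -2.04, with -4.30 on replicate 2 and -4.84 on the standard array. Aqp9, a water and glycerol channel, had -0.72 and -4.98 on the high-calcium arrays. It had -2.50 on the standard array and -4.24 on the array of open diet.

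The standard array was highest in most genes of the efferent duct and cilia list. The 5 genes summed to 0.563 and 0.363 on the high-calcium arrays, 2.05 on the standard array and 0.418 on the array of open diet, and 4 of the 5 were highest on the standard array, as were 18.1% of all genes. Adgrg2, an adhesion receptor of efferent ducts, had -1.62 and -2.84 on the high-calcium arrays, against 0.61 on the standard array and -2.26 on the array of open diet. Most of the sum on the standard array came from Adgrg2. Dnah5 went the other way, under background on the standard array at -4.87 and above it on replicate 2 alone, at -3.52. Foxj1, the regulator of motile cilia, was above background on the standard array alone, at -2.68. This was the array on which Cldn2 was highest.

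Mesothelial genes did not follow the simple keratins. All 9 were above background on every array and all 9 were lowest on the standard array, as were 25.8% of all genes. Krt8 and Krt18 were second highest there. They summed to 4.04 and 3.20 on the high-calcium arrays, 2.06 on the standard array and 3.55 on the array of open diet. Msln, which encodes mesothelin, had -2.22 and -3.03 on the high-calcium arrays, against -3.57 on the standard array and -2.59 on the array of open diet. Upk1b had -1.15 and -1.69 on the high-calcium arrays, -2.47 on the standard array and -1.64 on the array of open diet. On replicate 2 and the array of open diet, where Cdh1, Cldn3 and Cldn7 were under background, Krt8, Krt18, Krt19 and all 9 mesothelial genes were above it. Elf3, Grhl2 and, by the probe set used, Epcam were above it on these arrays as well. Of the 35 measured epithelial program genes 10 were above background on all 4 arrays, beside 57.5% of all genes. Markers of stratified epithelium summed to 1.60 and 1.004 on the high-calcium arrays, 1.02 on the standard array and 1.17 on the array of open diet. Trp63, the regulator of basal cells, was above background on replicate 1 alone, at -2.76. The 6 endothelial genes were above background on all arrays and summed to 3.42 and 2.40 on the high-calcium arrays, 3.79 on the standard array and 2.51 on the array of open diet. The part of any of these cell types in the tracer values was not tested.

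**Figure D4:**
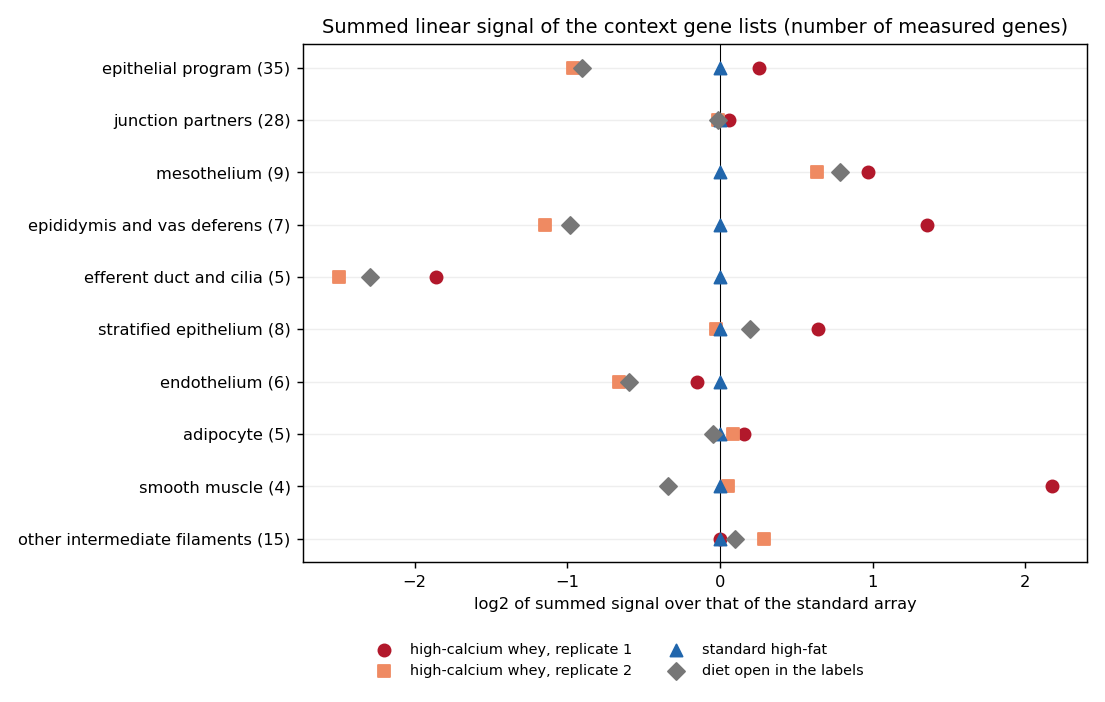
Log2 of the summed linear signal of each gene list over that of the standard array, with 1 point per array and the number of measured genes in brackets. The smooth muscle list reaches furthest right, on replicate 1, followed by the epididymis list, also on replicate 1. The efferent duct list lies left of the standard array on all other arrays, and the mesothelium list lies right of it on all other arrays.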

How the data were processed

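RNA labelled with biotin was hybridised to Affymetrix Mouse Genome arrays, 1 array per mouse. The authors deposited a linear intensity for each of 45101 probe sets. The submitters' processing notes name RMA with no version, yet the deposited intensities are linear, with a lowest value of 1/100 of the median on every array, and their scaling is not stated. Log2 was taken of the deposited intensity with no constant and no further scaling.

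Genes were assigned from the platform annotation, in which 34958 probe sets had 1 symbol, 932 several and 9211 none. RefSeq records matched 34754 and changed 0 symbols. A probe set of both Krt17 and Krt14 was left out. Of 94 coding genes in RefSeq that meet the symbol rule 78 were measured, and the rest were not analysed here. Members and gene lists were chosen with earlier results of these data known. Per-array values are given for the 7 genes named singly, for keratins and claudins above the array median throughout, for up to 8 of each family above it on at least 1 array, by range, and for up to 3 genes of each other list, by range. Krt1, Krt7, Krt14, Krt20, Krt71, Krt80, Krt88, Adipoq, Trp63, Lcn8, Lcn9, Adam7, Cftr and Dnah5 were named after their values were seen.

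High-calcium and standard arrays (2 against 1) were compared by limma (version 3.58.1, R 4.3.3), with moderated two-sided tests on 2.38 degrees of freedom and Benjamini-Hochberg adjusted p-values over 18194 genes, called at 0.05. The steps were tested on simulated data, where the calling of known shifts was required only at a small spread between arrays. That test does not show that the fit can call genes with gaps between replicates as wide as those of the members. The number of arrays limits the precision. Alternatives covered the probe set rule, quantile normalization, median centring, a dim-gene filter, a trend with robust estimation, fold and background thresholds, and each high-calcium array left out.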

Additional observations from a re-analysis of the deposited data

Results flagged for a closer look

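On the array of open diet, which entered no comparison, 6 keratins were above background, and on the standard array each was under background with a log2 signal at least 1 lower. Against the background of the standard array the folds were bounded at 1.11-fold (Krt71) to 1.95-fold (Krt78). Log2 signals on the array of open diet were -3.75 for Krt5, -3.86 for Krt71, -3.04 for Krt78, -3.06 for Krt80, -3.31 for Krt83 and -3.37 for Krt88. Krt5, Krt78 and Krt80 were above background on both high-calcium arrays too, Krt88 on replicate 2 alone, and Krt71, a keratin of the inner root sheath, and Krt83, a hair keratin, on the array of open diet alone. In all, 16 of 48 keratins were above background on the array of open diet and 11 of 48 on the standard array. The shares of all genes were 64.6% and 66.1%. How many of all genes meet the rule that flagged these keratins was not counted.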

How the results depend on the processing

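The count of members called was 0 under all alternatives run except centring on array medians, which called 1 (Cldn2) and 96 genes in all. The trend with robust estimation called 6 genes in all. Without either high-calcium array the fit has no residual degrees of freedom, so no test was run there. Members lower by 1.5-fold or more on both high-calcium arrays numbered 4 and became 14 after quantile normalization, 13 on centred arrays, 0 with the filter on dim genes and 2 at a 2-fold threshold. Those at least 1.5-fold higher numbered 23 and became 15 after quantile normalization, 18 on centred arrays, 0 with the filter and 13 at 2-fold. Of all 18194 genes, 1282 were lower and 1580 higher after quantile normalization. On centred arrays 1382 were lower and 1826 higher. Leaving out 1 high-calcium array gave 8 to 30 lower and 24 to 47 higher members, and a member median of -0.17 to 1.14. At 2 times the array median as background, 23 and 15 members remained above it on high-calcium replicates 1 and 2, 17 on the standard array and 15 on the array of open diet. On centred arrays the list medians turned negative for adipocytes (0.17 to -0.15), junction partners (0.09 to -0.23) and the epithelial program (0.07 to -0.24), and moved by over 1.5 times for mesothelium (0.78 to 0.46), epididymis (-0.35 to -0.67), endothelium (-0.38 to -0.70), stratified epithelium (0.84 to 0.52) and other intermediate filaments (0.89 to 0.58). After quantile normalization they moved as much for adipocytes (0.054), the epithelial program (-0.11), epididymis (-0.91) and other filaments (0.58).

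Signs turned with the mean of all probe sets for Epcam (-0.64) and Ocln (-0.78), without probe sets that can share transcripts for Krt4 (0.92), after quantile normalization for Krt32 (-0.047), and on centred arrays for Krt32 (-0.20) and Krt79 (-0.29). The cause was not tested. Leaving out replicate 1 reversed 5 and leaving out replicate 2 reversed 13 of the 36 described members. With 1 or the other left out, the log2 differences of these were Cdh1 -4.18 to 1.45, Cldn1 -3.04 to 0.44, Cldn15 -0.49 to 0.13, Cldn22 -0.58 to 0.22, Cldn3 -3.96 to 2.27, Cldn7 -6.14 to 1.59, Cldn8 -4.90 to 3.90, Dsp -3.72 to 0.32, Elf3 -0.86 to 0.33, Esrp1 -3.89 to 2.47, Krt18 -2.14 to 1.16, Krt19 -1.25 to 1.98, Krt32 -0.40 to 0.64, Krt4 -3.86 to 0.16, Krt79 -0.16 to 0.22, Krt8 -2.22 to 0.77, Krt83 -0.15 to 2.12 and Ocln -0.32 to 1.42. No paired analysis was run, since each array came from a different mouse and the labels give no pairing. Where an array was under background, folds are bounds only.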
